A study of Mus musculus with 8 samples.

Results

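The MYC and MAX network is a set of basic helix-loop-helix leucine zipper transcription factors, and 10 of its genes were followed here in embryonic mouse lung mesenchyme from a conditional Sin3a knockout. The genes are Myc, Mycn, Mycl, Max, Mxd1, Mxi1, Mxd3, Mxd4, Mnt and Mga, chosen by symbol from a table of 51912 genes. All 10 were among the 20315 genes with enough counts to be tested.

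MYC proteins pair with MAX, bind the E-box CACGTG and raise transcription, most of all of genes for ribosome building, metabolism and cell division. The 4 MXD proteins (MXI1 is one of them) and MNT compete for the same partner and the same site, and carry a short SIN3 interaction domain at the amino terminus through which they recruit SIN3A or SIN3B with histone deacetylases to repress. MGA, which also pairs with MAX and carries a T-box besides, is a subunit of the variant Polycomb complex PRC1.6. In mouse development Mycn is known for its need in growth of the embryonic lung.

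RNA came from sorted mesenchymal cells of lungs at embryonic day 16, with 4 Control and 4 Sin3a CKO libraries labelled as biological replicates and 96098322 to 108493347 counts in each. All embryos carried Tbx4rtta and tetocre, which drive Cre in lung mesenchyme under doxycycline, given here to the mothers from embryonic day 12. Controls were Sin3a F/+, with 1 floxed allele, and knockouts Sin3a F/F, so the controls too can lose 1 allele. The sources used here do not say how cells were sorted, how complete deletion was or whether a library is 1 embryo, so p-values measure the spread between these libraries. Values per library are listed below in the order of the replicate numbers 1 to 4. The 10 lung mesenchyme markers checked were above 0 in every library. Sin3a itself was at 46.2 to 58.7 CPM (the count set against the library size, scaled by TMM) in controls and 53.2 to 61.0 CPM in knockouts. It did not pass the test for a difference (log2 fold change 0.17 ± 0.09; edgeR adjusted p = 0.191). Which exons are deleted is not stated in the labels, so this does not check the genotype.

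Of the 10 network genes 6 rose and 1 fell in Sin3a CKO, while 3 stayed short of an adjusted p of 0.05 in edgeR's quasi-likelihood test. All 5 genes for SIN3-recruiting repressors rose, Mnt 3.17-fold, Mxd3 2.03-fold, Mxd1 2.01-fold, Mxi1 1.76-fold and Mxd4 1.48-fold. Max rose 1.28-fold, and Mga fell to 0.705 of its control level. Myc, Mycn and Mycl did not pass. Over all tested genes 17.3% rose and 16.1% fell, 33.4% in all, so a call by itself is common in this comparison. Calls were more common still among better expressed genes. In a fit of the 9901 genes with a mean of at least 10 CPM, 3012 rose and 2688 fell. In that fit 6 members rose and 2 fell, Mga and Myc, while Mycl was below the cutoff.

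A gain of at least 2-fold past the test was seen for 3 of the 10 genes, against 2.61% of all tested genes. The groups did not overlap for 7 of the 10, the called ones, against 36.1% of all tested genes. This last share was not computed for genes at the level of the members. The median change of the 10 was 0.46 on the log2 scale, against 0.04 over all tested genes.

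**Figure D1:**
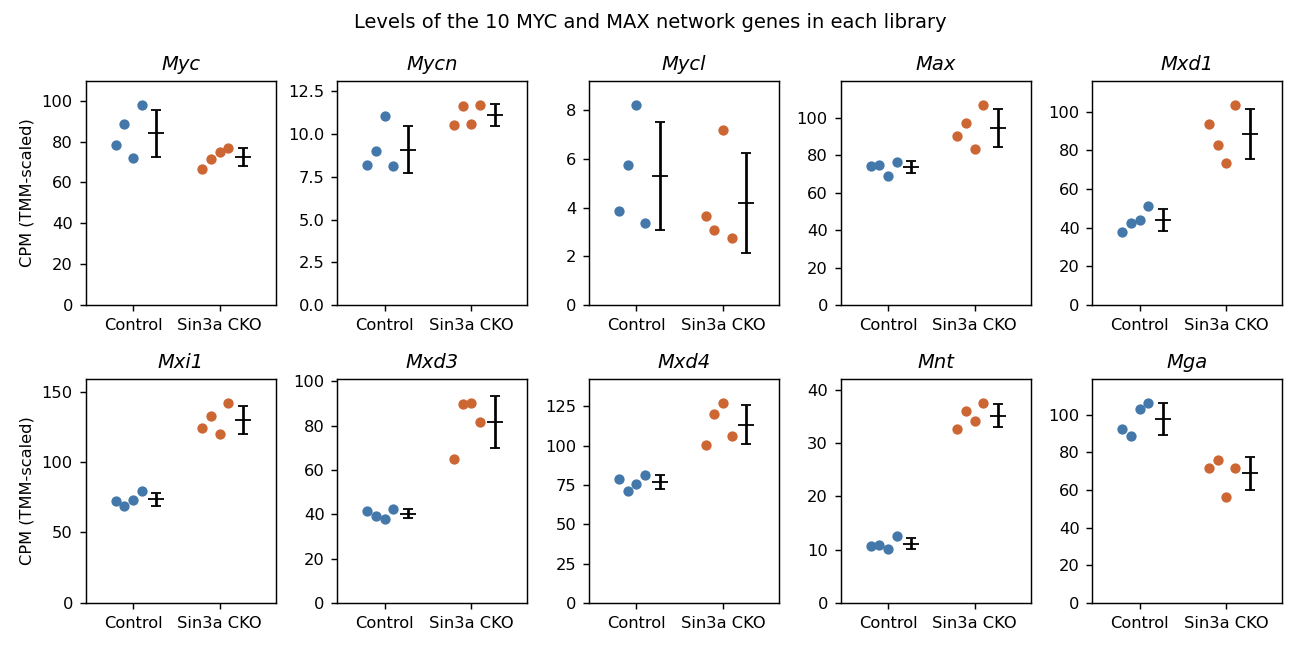
Each panel shows 1 gene, with CPM on the vertical axis from 0, 4 Control libraries in blue and 4 Sin3a CKO libraries in orange, and the mean with its SD in black. Every knockout lies above every control for Max, Mxd1, Mxi1, Mxd3, Mxd4 and Mnt and below every control for Mga, while the groups overlap for Myc, Mycn and Mycl.

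The E-box is the letter pattern through which the network acts, so the promoters of the members were read for it. RefSeq promoters (GRCm38.p6) were at hand for 9 of the 10 genes, with 3 start sites for Mxi1 and none used for Myc. CACGTG, which reads the same on both strands, was found in 3 of the 9, those of Mnt, Max and Mxd4, within 250 bases before to 50 bases after the start. The same letters are in 7.15% of all 32851 such promoters and in those of 11.0% of tested genes matched by symbol. The 3 promoters are printed from 250 bases before to 20 bases after the start, with the E-box in capitals. It begins 123 bases before the start in Mnt (chr11:74830674-74830943, plus strand), 3 bases before it in Max (chr12:76962229-76962498, minus strand) and 219 bases before it in Mxd4 (chr5:34187691-34187960, minus strand).
Mnt: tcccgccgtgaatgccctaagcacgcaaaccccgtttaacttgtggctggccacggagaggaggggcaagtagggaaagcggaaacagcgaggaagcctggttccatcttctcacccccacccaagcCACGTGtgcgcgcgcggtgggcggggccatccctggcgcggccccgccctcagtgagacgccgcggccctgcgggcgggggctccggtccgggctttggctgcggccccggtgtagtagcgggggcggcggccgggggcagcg
Max: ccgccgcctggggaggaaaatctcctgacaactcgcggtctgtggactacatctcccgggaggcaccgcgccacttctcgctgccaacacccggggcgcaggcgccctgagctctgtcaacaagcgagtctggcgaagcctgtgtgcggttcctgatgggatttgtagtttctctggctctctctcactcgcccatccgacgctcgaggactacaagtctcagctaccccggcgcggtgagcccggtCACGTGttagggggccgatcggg
Mxd4: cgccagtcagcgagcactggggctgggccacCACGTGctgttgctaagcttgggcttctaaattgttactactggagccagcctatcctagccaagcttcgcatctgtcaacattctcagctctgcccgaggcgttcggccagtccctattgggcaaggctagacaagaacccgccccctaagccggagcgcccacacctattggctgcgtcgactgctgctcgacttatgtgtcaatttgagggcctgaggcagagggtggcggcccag
These 3 genes all rose, Mnt by the most of the 10, Max and Mxd4 by the least of the 6 that rose. The promoters of Mxd1, Mxi1 and Mxd3, which rose as well, hold no such letters in this window, which says nothing of binding.

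Mnt encodes the widely expressed, constitutive SIN3 recruiter of the network. The gene (ENSMUSG00000000282, chromosome 11, 74830920 to 74845725, plus strand, GRCm38) stood at 10.7, 10.8, 10.2 and 12.6 CPM in the controls, against 32.7, 36.0, 34.2 and 37.5 CPM in the knockouts. The lowest knockout was far above the highest control, and the spread within each group was small. The log2 fold change was 1.66 ± 0.10 (SE, 4 against 4 libraries; 95% interval 1.45 to 1.88; adjusted p = 1.58e-05 by edgeR's quasi-likelihood test). By p this was the 14th smallest of the 20315 genes, and by size of rise the gene stood at place 222. The change was 1.76 within libraries whose identifier begins with s686 and 1.70 within those that begin with s1244. Here and below, the s686 value sets Sin3a CKO 4 alone against Control 1 and 2. The s1244 value sets Sin3a CKO 1 to 3 against Control 3 alone.

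The 4 MXD genes encode repressors that in many tissues appear as cells leave the cycle, except MXD3, which is found in S phase. Mxd1 (ENSMUSG00000001156, chromosome 6, 86647042 to 86669161, minus strand) stood at 37.9, 42.6, 44.2 and 51.4 CPM in the controls, against 93.5, 82.8, 73.5 and 103.4 CPM in the knockouts. Its knockouts varied more than its controls but did not overlap with them. The log2 fold change was 1.00 ± 0.12 (95% interval 0.73 to 1.28; edgeR adjusted p = 0.000279), and 1.35 among s686 libraries and 0.90 among s1244 libraries.

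Mxd3 (ENSMUSG00000021485, chromosome 13, 55325168 to 55329823, minus strand) stood at 41.6, 39.2, 37.8 and 42.4 CPM in the controls, against 65.0, 89.7, 90.3 and 81.9 CPM in the knockouts. Sin3a CKO 1 was the lowest knockout and still above every control. The change was 1.02 ± 0.11 on the log2 scale (95% interval 0.78 to 1.26; edgeR adjusted p = 0.000122), with 1.01 and 1.08 within prefixes s686 and s1244. Its 3′ neighbour Prelid1, on the opposite strand, shares 4.43% of the exon bases of Mxd3. Strand use in counting is not given, so reads there cannot be told apart. Prelid1 went from 219.6 ± 5.47 to 239.7 ± 45.1 CPM and did not pass (edgeR adjusted p = 0.472).

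Mxi1 (ENSMUSG00000025025, chromosome 19, 53310518 to 53375810, plus strand) stood at 72.6, 68.6, 73.2 and 79.7 CPM in the controls, against 124.1, 132.9, 119.6 and 142.0 CPM in the knockouts. The groups lay well apart. The log2 fold change was 0.82 ± 0.08 (95% interval 0.64 to 0.99; edgeR adjusted p = 8.55e-05), with 1.00 and 0.77 within prefixes s686 and s1244. Gm13735, a gene with 91.0% identity to 609 bases of the Mxi1 transcript, had 0 counts in all libraries. Gm10197 on the opposite strand shares 2.84% of the exon bases and reached at most 1.604 CPM.

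Mxd4 (ENSMUSG00000037235, chromosome 5, 34173883 to 34187720, minus strand) stood at 78.8, 71.1, 75.5 and 81.5 CPM in the controls, against 100.5, 119.7, 127.2 and 105.9 CPM in the knockouts. Every knockout was above every control, by the narrowest margin of the 4 MXD genes relative to level. The change was 0.56 ± 0.09 on the log2 scale (95% interval 0.36 to 0.76; edgeR adjusted p = 0.0011), with 0.50 and 0.61 within prefixes s686 and s1244. The antisense gene Gm42846 shares 6.06% of the exon bases of Mxd4 and reached at most 4.03 CPM. The interval of Mnt lay above those of all 4 MXD genes; a difference between genes was not tested.

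Max encodes the partner with which the MYC, MXD, MNT and MGA proteins all pair. The gene (ENSMUSG00000059436, chromosome 12, 76937269 to 76962201, minus strand) stood at 74.2, 74.8, 69.3 and 76.5 CPM in the controls, against 90.4, 97.5, 83.2 and 106.9 CPM in the knockouts. The groups did not overlap, and the knockouts were the more variable. Max rose by 0.36 ± 0.09 on the log2 scale (95% interval 0.17 to 0.55; edgeR adjusted p = 0.00955). Without a filter on low counts the call ended (0.26, adjusted p = 0.0556), as it did with trends on gene length and GC content removed (0.36, adjusted p = 0.169), within an adjusted p range of 0.00075 to 0.169 over the alternatives.

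Mga was the member that fell. The gene (ENSMUSG00000033943, chromosome 2, 119897228 to 119969581, plus strand) stood at 92.4, 88.9, 103.0 and 106.3 CPM in the controls, against 71.5, 76.1, 56.0 and 71.7 CPM in the knockouts. All knockouts were below all controls, Sin3a CKO 3 the furthest. The log2 fold change was -0.50 ± 0.11 (95% interval -0.74 to -0.27; edgeR adjusted p = 0.00482), with -0.34 and -0.61 within prefixes s686 and s1244. The call ended with an erythroid marker covariate (-0.40, adjusted p = 0.195; range over the alternatives 4.48e-06 to 0.195).

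Myc encodes c-MYC, the most widely expressed activator of the network. The gene (ENSMUSG00000022346, chromosome 15, 61985391 to 61990374, plus strand) stood at 78.4, 88.5, 71.7 and 97.8 CPM in the controls, against 66.6, 71.6, 74.7 and 77.1 CPM in the knockouts. Control 3 lay among the knockouts, and the other 3 controls lay above all of them, Control 1 narrowly. The change of -0.21 ± 0.10 on the log2 scale did not pass (95% interval -0.44 to 0.01; edgeR adjusted p = 0.139), and was -0.11 and -0.02 within prefixes s686 and s1244. It was past the threshold as lower in 3 of 20 alternatives, with upper-quartile scaling (-0.32, adjusted p = 0.0115), with no filter (-0.31, adjusted p = 0.0255) and with a mean of at least 10 CPM (-0.26, adjusted p = 0.017), within a range of 0.0115 to 0.752. With an erythroid marker covariate the sign turned (0.14, adjusted p = 0.596).

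Mycn, the paralog needed for embryonic growth in several organs, was much lower. The gene (ENSMUSG00000037169, chromosome 12, 12936093 to 12941914, minus strand) stood at 8.18, 8.99, 11.0 and 8.14 CPM in the controls, against 10.5, 11.6, 10.6 and 11.7 CPM in the knockouts. Control 3 was inside the knockout range and the other 3 controls below it. The change was 0.29 ± 0.13 on the log2 scale and did not pass (95% interval 0.002 to 0.58; edgeR adjusted p = 0.116). Without Control 3 it passed (0.39, adjusted p = 0.041; range over the alternatives 0.041 to 0.97), and within prefix s1244, where Control 3 is the only control, it was -0.02.

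Mycl, the third paralog, was at the lowest level of the 10. The gene (ENSMUSG00000028654, chromosome 4, 122995652 to 123002485, plus strand) stood at 3.85, 5.76, 8.21 and 3.37 CPM in the controls, against 3.67, 3.10, 7.20 and 2.78 CPM in the knockouts, from 265 to 886 counts. Control 3 and Sin3a CKO 3 were highest in their groups. These 2 libraries were also highest in their groups in summed epithelium markers, at 443 and 1288 CPM. The change of -0.34 ± 0.37 did not pass (95% interval -1.16 to 0.48; edgeR adjusted p = 0.542). It was called as lower without Control 4 and Sin3a CKO 3 together (-0.97, adjusted p = 0.0361), with an epithelium marker covariate (-0.86, adjusted p = 0.0341) and with an erythroid one (-1.92, adjusted p = 0.017), within a range of 0.017 to 0.937.

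**Figure D2:**
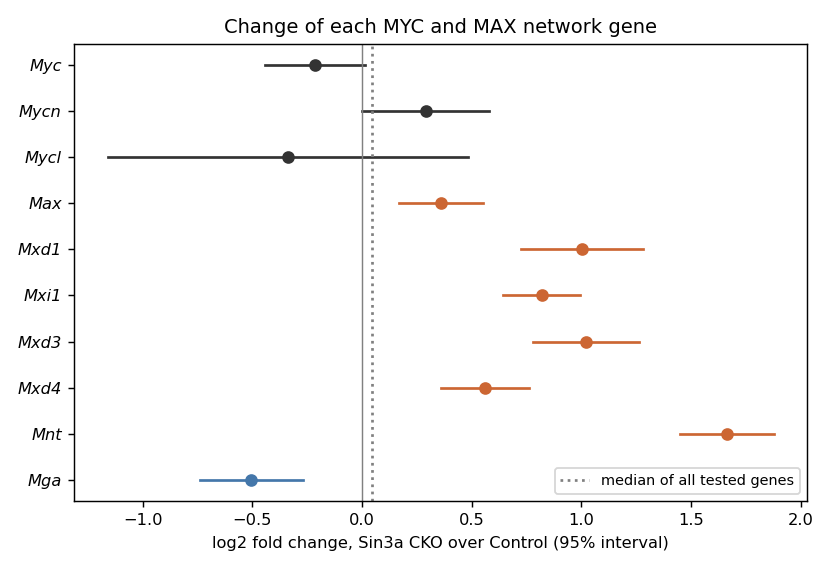
Points show the log2 fold change of each gene, Sin3a CKO over Control, with its 95% interval; orange marks a called rise, blue a called fall and dark grey no call. Mnt, at 1.66, has its whole interval above those of the other 9 genes, and the dotted line marks the median of all tested genes, 0.04.

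Markers of other cell types moved with the groups in part. Summed erythroid markers were at 100.9 to 883 CPM in controls and 1096 to 4291 CPM in knockouts, without overlap, and 6 of 9 tested rose (2 with no filter on low counts). Summed epithelium markers were at 56.2 to 443 and 53.1 to 1288 CPM, and all 10 stayed short of the threshold, while 5 of them rose without Control 3 and 4 with a replicate block, and 5 fell with the erythroid covariate and 1 with the epithelium covariate. The epithelium sums ran with the identifier prefix. They were at 399 to 1288 CPM in the s1244 libraries and at 53.1 to 70.0 CPM in the others. All 9 erythroid and all 10 epithelium markers in the table were above 0 in every library. Mesenchyme markers summed to 17325 to 23807 CPM in controls and 12558 to 14085 CPM in knockouts, and 6 of 10 fell. With length and GC trends removed 3 of these markers fell, and with the erythroid covariate 0, while with a prefix block 1 rose. Endothelium markers summed to 36.4 to 184 CPM and 54.4 to 110.4 CPM, and 1 of 8 fell (7 with a prefix block, 0 without Sin3a CKO 2). Leukocyte markers summed to 14.9 to 400 CPM in controls and 198 to 325 CPM in knockouts, lowest in Control 4. Neuron and glia markers stayed at or under 8.89 CPM in sum, and mesothelium markers at or under 43.7 CPM. In such bulk samples fewer cells of a type and less RNA per cell cannot be told apart.

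With the erythroid markers as a covariate Mnt, Mxd1, Mxi1 and Mxd3 kept their calls (1.94, 1.29, 0.99 and 1.11), while Mxd4 did not pass (0.52, edgeR adjusted p = 0.0759; range over the alternatives 2.04e-07 to 0.0759). The erythroid sums of the groups did not overlap, so this covariate runs largely with the group, and the fit cannot tell the 2 apart. The SE of Mxd3, for 1, was 0.22 with it and 0.11 without it. Calls kept or lost with this covariate therefore do not show the part of other cell types in these changes, which was not tested.

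**Figure D3:**
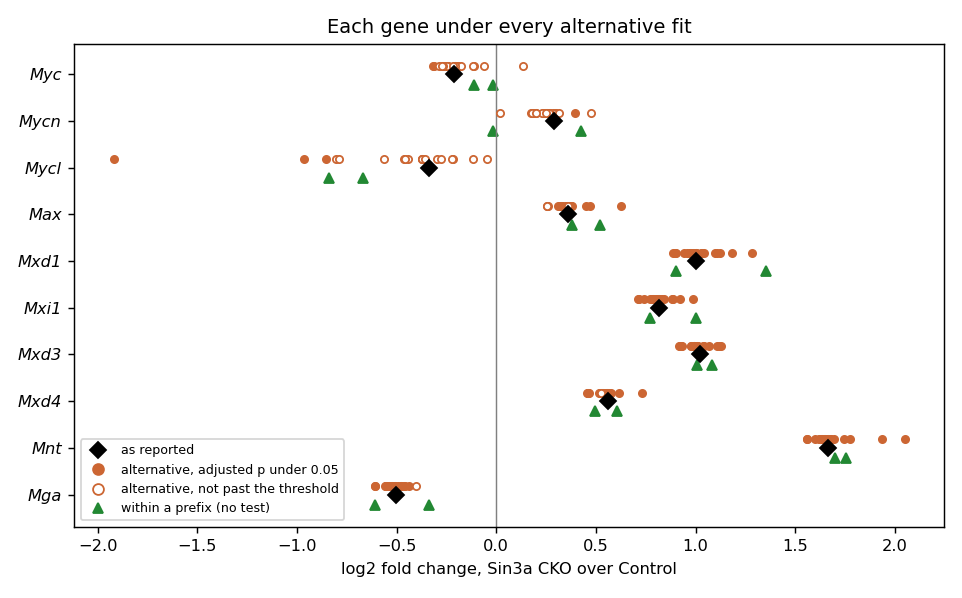
The horizontal axis is the log2 fold change, Sin3a CKO over Control, of each gene in the fit as reported (diamond), under each alternative fit (circles, filled where the adjusted p was under 0.05) and within a prefix of the library identifier (triangles). Mnt, Mxd1, Mxi1 and Mxd3 stay to the right of 0 with filled circles throughout, Mxd4 and Max have open ones among them, and the circles of Myc are mostly open.

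To compare levels between genes, CPM was divided by the length of the merged exons in kb. In controls Myc stood highest at 31.0 ± 4.21 CPM per kb (SD, n = 4), followed by Max at 20.5 ± 0.86, Mxd3 at 17.0 ± 0.89, Mxi1 at 10.8 ± 0.67 and Mxd4 at 9.05 ± 0.53. Mga at 6.37 ± 0.54 and Mxd1 at 6.22 ± 0.79 overlapped, as did Mycn at 2.76 ± 0.41 and Mnt at 2.40 ± 0.23, and Mycl was lowest at 1.31 ± 0.54. The other neighbours in this order did not overlap in any library. The order depends on the length used: with the longest transcript as length Max, at 37.9 ± 1.59 CPM per kb, had a higher mean than Myc, at 36.0 ± 4.90, and Mxd4, at 16.6 ± 0.96, a higher one than Mxi1, at 14.6 ± 0.91, while Mxd1, at 9.43 ± 1.19, stood above Mga, at 7.01 ± 0.60.

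In knockouts the order of levels per kb was another. Mxd3 stood highest at 34.5 ± 4.98 CPM per kb (SD, n = 4), overlapping with Myc at 26.7 ± 1.66, which overlapped with Max at 26.3 ± 2.82. Mxi1 followed at 19.0 ± 1.46, then Mxd4 at 13.4 ± 1.45 and Mxd1 at 12.5 ± 1.83, which overlapped. Mnt, at 7.59 ± 0.46, was now above Mga at 4.49 ± 0.57 and Mycn at 3.37 ± 0.20, without overlap, and Mycl stayed lowest at 1.04 ± 0.51. With the longest transcript as length Max had the highest mean, at 48.7 ± 5.22 CPM per kb, followed by Mxd3 at 46.9 ± 6.77 and Myc at 31.0 ± 1.93.

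Summed per kb, the 3 MYC genes were at 32.3, 36.7, 31.8 and 39.3 CPM per kb in Control 1 to 4 and 28.6, 30.7, 32.5 and 32.6 CPM per kb in Sin3a CKO 1 to 4. The 5 MXD and MNT genes summed to 45.2, 43.3, 44.0 and 49.2 CPM per kb in controls and 77.7, 90.9, 88.4 and 90.6 CPM per kb in knockouts. The MYC sums overlapped, while the MXD and MNT sums did not. MXD and MNT genes made up 56.5% ± 2.02 (SD, n = 4) of both sums in controls and 73.6% ± 0.80 in knockouts. These are RNA levels per length, described with no test, and say nothing of protein.

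**Figure D4:**
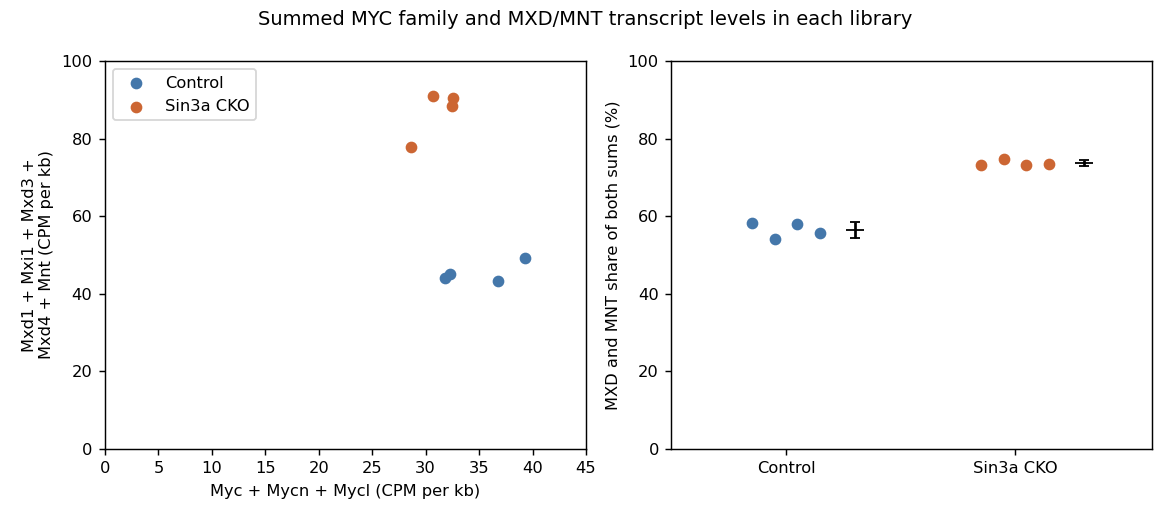
On the left each point is 1 library, with the summed level of Myc, Mycn and Mycl on the horizontal axis and that of Mxd1, Mxi1, Mxd3, Mxd4 and Mnt on the vertical axis, both in CPM per kb. On the right is the share of the second sum in both, in percent, with mean and SD in black: controls lie between 54.1% and 58.3% and knockouts between 73.1% and 74.8%.

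Sin3b, the SIN3A paralog that also binds MXD proteins, stood at 120.3, 120.5, 118.9 and 136.0 CPM in the controls, against 167.1, 175.4, 203.5 and 186.6 CPM in the knockouts. It rose by 0.56 ± 0.08 on the log2 scale, with no overlap between groups. Sin3a itself, given above, was past the threshold as higher in 3 of 20 alternatives, with a prefix block (0.29), without Control 4 and Sin3a CKO 3 together (0.22) and with the erythroid covariate (0.50).

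The MLX arm is a parallel branch in which MLX pairs with the glucose-sensing factors MLXIP and MLXIPL, and also with some MXD proteins and MNT. Mlx rose by 0.29 ± 0.07 on the log2 scale, from 33.8 ± 1.80 to 41.4 ± 2.27 CPM (SD, n = 4), and Mlxip by 0.26 ± 0.09, from 85.0 ± 9.95 to 102.1 ± 3.98 CPM. The call of Mlxip held in 11 of 20 alternatives and that of Mlx in 16 of 20. Leaving out any of Control 1 to 3 (0.28, 0.24 and 0.20) ended the call of Mlxip, and so did leaving out knockout 1, 2 or 4 (0.27, 0.28 and 0.21), while that of Mlx ended without Control 2 (0.26). Mlxipl was at 0.270 ± 0.0575 CPM in controls and 0.118 ± 0.0834 CPM in knockouts and did not pass.

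Genes known to be induced by MYC, many of them for ribosome building, lay largely on the higher side. Of 70 tested genes 41 rose, 4 fell and 25 did not pass, so that 58.6% rose against 17.3% of all genes, and the median was 0.37 against 0.04. Most of the 70 were above 10 CPM, where calls are more common. In the fit of the 9901 genes with a mean of at least 10 CPM, 3012 rose, with a median change of 0.02. Rrp9, a protein of the U3 small nucleolar particle, rose by 1.29 ± 0.09 on the log2 scale, and Rcl1, which acts in ribosomal RNA cleavage, by 1.13 ± 0.09. Tert, the catalytic subunit of telomerase, fell by 1.71 ± 0.16 and Ccnd2 (cyclin D2) by 1.41 ± 0.17. The other 2 that fell, named after their values were seen, were Tfrc, the transferrin receptor, at -1.10 ± 0.19, and the folate carrier gene Slc19a1 at -0.24 ± 0.07. With length and GC trends removed 27 of the 70 rose, where 2113 of all genes did in place of 3518.

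Of 8 genes known to be repressed by MYC 1 rose, 1 fell and 6 did not pass. Cdkn1b, which encodes the CDK inhibitor p27, rose by 0.58 ± 0.11, and Ndrg2, a differentiation-associated gene, fell by 1.43 ± 0.31. These shares of 12.5% in each direction were near those of all genes. In 7 of 20 alternatives 2 rose, among them the fit without Control 4. Over the alternatives 0 to 2 fell, with 2 in the fit without Sin3a CKO 4.

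Of 18 genes for MYC cofactors 4 rose, 1 fell and 13 did not pass, with a median of -0.01. The share that rose, 22.2%, was near the 17.3% of all tested genes, and 5.56% fell, against 16.1%. Most of the 18 averaged above 10 CPM, where calls in both directions were more common than over all tested genes. Ruvbl2, an ATPase of chromatin remodelling complexes, rose by 0.48 ± 0.10 and Bptf, a remodelling factor subunit, by 0.37 ± 0.08. Kat2a, the acetyltransferase GCN5, fell by 0.38 ± 0.11. That call ended with a prefix block (-0.22), with length and GC trends removed (-0.13), with either marker covariate (-0.29 and 0.02), and without Control 1 (-0.36) or Sin3a CKO 1 (-0.36), while upper-quartile scaling gave 6 that fell in the list. Without Control 1 or Control 3 the number that rose was 2, and the number that fell was 2 with Control 4 left out, 4 with knockout 3 left out and 3 with knockout 4 left out.

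Of 19 genes that act on MYC protein turnover 4 rose and 15 did not pass, and with a prefix block 11 rose. Over the alternatives 0 to 4 fell, among them 1 without Control 3 or Control 4 and 2 without Sin3a CKO 4. Usp28, a deubiquitinase that stabilises MYC, rose by 0.80 ± 0.11. Named after their values were seen, the ubiquitin ligase genes that rose were Stub1 at 0.44 ± 0.10 and Fbxw7 at 0.34 ± 0.10. The share that rose, 21.1%, was near the 17.3% of all genes. All 19 averaged above 10 CPM. In the fit of the 9901 genes with a mean of at least 10 CPM, 3012 rose, a larger share than 21.1%. The 21.1% is from the fit as reported, so these shares come from unlike fits. Over the alternatives 3 to 11 of the list rose.

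Partners of MGA in PRC1.6 went both ways. Of 12 genes 6 rose, 2 fell and 4 did not pass. These were 50% and 16.7%, against 17.3% and 16.1% of all tested genes, with calls more common among better expressed genes. L3mbtl2, which binds nucleosomes in that complex, rose by 0.49 ± 0.08 and Cbx3, a heterochromatin protein, by 0.43 ± 0.09. E2f6, its E2F subunit, fell by 0.33 ± 0.07, and Tfdp1, the partner of E2F proteins, by 0.30 ± 0.08. With length and GC trends removed 2 rose, and Cbx3 (0.20), E2f6 (-0.26) and Tfdp1 (-0.30) did not pass. With the erythroid covariate neither Cbx3 (0.23) nor E2f6 (-0.29) passed. Tfdp1 also lost its call without Control 1 (-0.30) or Sin3a CKO 2 (-0.28) and with the epithelium or erythroid covariate (-0.21 and -0.02).

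Of 10 germline genes that PRC1.6 keeps silent in mouse embryonic stem cells 5 had enough counts to be tested, of which 2 fell and 3 did not pass. The 2 are 40% of a short list, against 16.1% of all tested genes that fell. Stag3, a meiotic cohesin subunit, fell by 1.49 ± 0.18, from 13.5 ± 2.46 to 4.79 ± 0.87 CPM (SD, n = 4). Smc1b, another meiotic cohesin subunit, went from 0.303 ± 0.181 to 0.0566 ± 0.0322 CPM, a change whose call held in 11 of 19 alternatives. It ended without Control 2 (-2.01) or Control 3 (-2.32), without knockout 1, 2 or 3 (-2.24, -2.28 and -2.35), with a replicate block (-2.33), with limma-voom (-2.22) and with the erythroid covariate (-2.50).

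Of 7 other factors that bind E-boxes 3 rose and 4 did not pass, so that 42.9% of this short list rose, against 17.3% of all tested genes. Mitf, a regulator of lysosomal and pigment genes, rose by 1.23 ± 0.16 on the log2 scale and Tfap4, itself known as a MYC target, by 0.95 ± 0.15. Usf1, a widely expressed E-box factor named after its value was seen, was at 0.30 ± 0.06.

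**Figure D5:**
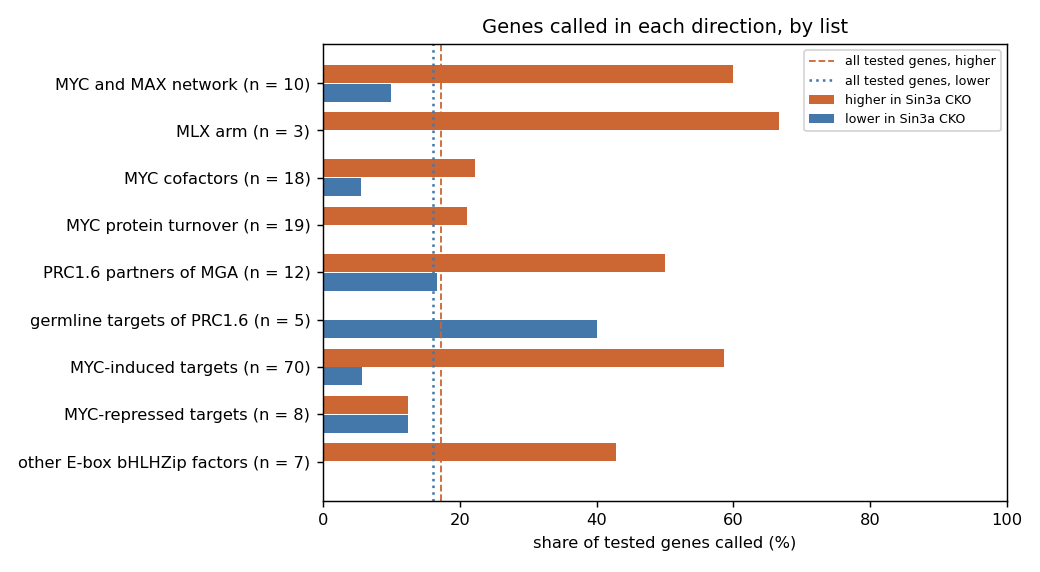
Bars give the share of tested genes called higher (orange) or lower (blue) in Sin3a CKO for the 10 network genes and each related list, in percent, with n the number tested; the dashed and dotted lines mark all tested genes, 17.3% higher and 16.1% lower. Among lists of 10 or more the orange bars of the network genes, the MYC-induced genes and the PRC1.6 partners reach 60%, 58.6% and 50%.

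Across all tested genes matched to a promoter, 1371 held the E-box letters and 11145 did not. Of those with CACGTG 25.8% rose and 17.7% fell, and of those without it 19.0% rose and 19.5% fell. Promoters with the letters had 61.2% GC on average and those without 59.6%, and the part of base composition in this was not tested.

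The genes whose log2 CPM followed Mnt most closely over the 8 libraries, among 10454 coding genes with a mean of at least 5 CPM, were Ing1 and Nfs1 (r = 0.998 each) and Sfxn2 (r = 0.997). Ing1 encodes a SIN3 complex subunit, Nfs1 a cysteine desulfurase and Sfxn2 a mitochondrial carrier, and all 3 rose, by 1.07 ± 0.07, 0.57 ± 0.07 and 1.01 ± 0.07 on the log2 scale. For Myc they were Phka1 (r = 0.966), Tnfaip8 (r = 0.965) and Smarce1 (r = 0.963), none of which passed, at -0.33 ± 0.12, -0.10 ± 0.06 and -0.12 ± 0.08. Phka1 passed as lower in 8 of 20 alternatives, with RLE (-0.36) or upper-quartile scaling (-0.43), no filter (-0.43), genes of 10 CPM or more (-0.37), DESeq2 (-0.36), or with Control 3 (-0.41), knockout 3 (-0.38) or knockout 4 (-0.39) left out. Tnfaip8 and Smarce1 each passed as lower in 2 of 20. These correlations include the gap between the groups and any shared scaling of a library, and are given as a description.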

How the data were processed

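RNA-seq was made from sorted lung mesenchymal cells of 4 Control and 4 Sin3a CKO samples. A table of expected counts from RSEM, with whole numbers only, is what the authors deposited. The submitters' processing notes name STAR 2.5.3a, edgeR, RSEM 1.3.0 and the build mm10, with no role stated. Totals were 96098322 to 108493347 counts per library, without molecular identifiers per the labels' protocols (SMARTer v4, Nextera XT), so PCR copies are included.

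Genes were kept by filterByExpr at a minimum count of 10, scaled by TMM and tested 2-sided with edgeR 4.0.16 (quasi-likelihood, robust, group as the only term) in R 4.3.3, with Benjamini-Hochberg adjustment over all 20315. SE was taken as |log2 change| over the root of the F statistic. Coordinates, exon lengths and overlaps came from GENCODE M21 (GRCm38), which held 51719 of the identifiers; copies were sought with BLAST at 90% identity over 500 bases. In counts simulated for Control against Sin3a CKO on 19575 genes, 22% of genes changed 1.5-fold and 48% of those changed 2-fold were recovered, with 5.41% of calls false. Only 100 genes were changed at each fold, drawn at random from genes of any level. The real comparison called 33.4% of genes, so these shares need not hold for it or for genes at the level of the members. Replicates of a group differed far beyond counting noise.

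Alternatives were other scaling (RLE, upper-quartile) and filters, DESeq2 1.42.0, limma-voom 3.58.1, replicate and prefix blocks, length and GC trends removed, libraries left out, and other gene lengths for levels. Epithelium and erythroid marker covariates were added after seeing the data. The erythroid one runs largely with the group, so calls or signs that change with it cannot be laid to either. Identifiers begin with s686 (Control 1 and 2, Sin3a CKO 4), s1244 (Control 3, Sin3a CKO 1 to 3) or s722 (Control 4). The labels do not say what these mean, and prefix and group are partly confounded. The epithelium marker sums run with prefix s1244 against the others, so the epithelium covariate cannot be told apart from that prefix.

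The 10 genes and the 15 lists were chosen with earlier results of these data known. Named were all 10, Sin3a, Sin3b, the MLX arm, the 2 called genes with the smallest p in each direction of each other list, and the 3 genes most correlated with Myc and with the member of smallest p; any other was named after its values were seen. A gene that this rule names is not reported here. Cip2a was matched by identifier.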

Additional observations from a re-analysis of the deposited data

Results flagged for a closer look

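Of 46 sets of 4 libraries, 5 had 1 library far from the other 3, where chance flags about 1 in 20. Control 4 had 136.0 CPM of Sin3b, against 118.9 to 120.5 CPM in the other controls. Sin3a CKO 4 had 108.0 CPM of Mlxip, against 99.6 to 100.4 CPM in the other knockouts. Control 3 had 443 CPM of summed epithelium markers, with the next control at 70.0 CPM, and 883 CPM of summed erythroid markers, with the next at 207 CPM. Control 3 is the only control with prefix s1244, and the knockouts with that prefix were at 399 to 1288 CPM of epithelium markers. Sin3a CKO 1 had 14085 CPM of summed mesenchyme markers, with the next knockout at 12809 CPM. None of the 20 sets made by the 10 network genes in the 2 groups was among them.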

How the results depend on the processing

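Members called higher numbered 6, and 5 to 7 over all alternatives; members called lower numbered 1, and 2 with no filter, with genes of 10 CPM or more on average, with upper-quartile scaling, without Control 4 and Sin3a CKO 3 together and with the epithelium covariate, where Myc (the first 3) or Mycl (the other two) joined Mga. With the erythroid covariate the number called lower was again 1, but the gene was Mycl in place of Mga. Leaving out 1 library gave 6 to 7 members higher and 1 lower, 2653 to 3260 genes higher and 2548 to 3723 lower. Of all genes 3518 were higher and 3274 lower; 2233 were higher with no filter, 2113 higher and 1967 lower with length and GC trends removed, and 2214 and 1413 with the erythroid covariate. The higher share of calls, 51.8%, was 38.2% with upper-quartile scaling (2790 higher, 4522 lower; median change -0.06 against 0.04), 36.9% with no filter (2233 and 3823) and 61.0% with the erythroid covariate. The MXD and MNT share differed by 17.1 percentage points between groups, by 15.4 with the longest transcript as length, by 12.2 with no length and by 16.3 to 17.7 without any 1 library; the cause of these shifts in calls was not tested, and the shares move with the lengths by construction. Signs turned for Myc (0.14), Kat2a (0.02284), Phka1 (0.10), Tnfaip8 (0.01241) and Smarce1 (0.13) with the erythroid covariate. That of Tnfaip8 (0.006414) also turned with length and GC trends removed. Within prefix s1244, described with no test, the signs of Mycn (-0.01505) and Smarce1 (0.01364) turned as well. Replicate numbers do not pair the libraries (same-numbered deviations correlate at -0.10 to 0.18, and those of control and knockout libraries that share a prefix at 0.04 to 0.33); a replicate block gave 3560 genes higher and 3222 lower, 6 and 1 members, and among the named genes changed the call of Smc1b alone. Leaving out a knockout or control leaves 3 on that side; Mycl, at 265 to 886 counts, is the least precise member.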
